A study of Homo sapiens with 52 samples.

Results

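The unfolded protein response is the set of signals by which a cell matches the folding capacity of the endoplasmic reticulum (ER) to the load of secreted and membrane proteins entering it. Here 39 of the 59408 genes listed in the deposited tables were followed. They were chosen by symbol from textbook knowledge of this response, with earlier results of these data known. By what their products do they were grouped into 11 chaperones and co-chaperones, 6 genes of oxidative folding and 7 stress sensors and their regulators. The others were 11 genes of ER-associated degradation and 4 genes of the translocon and its partners. WI-38 cells, a strain of normal human fibroblasts from embryonic lung, were exposed for 24 h to 0.0090% SDS, a detergent that damages the plasma membrane (PMD-Sen), to 75 mM KCl, which causes Ca2+ influx (Ca2+-Sen), or to 250 nM doxorubicin, which damages DNA (DDR-Sen). Cells were collected at the wash (day 0) and on days 1 to 4, 6, 8 and 16 after it, beside young untreated cells and cells passaged until they stopped dividing (RS). All 26 groups were of this wild-type strain, each with 2 mRNA-seq libraries. The study's methods call the 2 independent samples without saying that they were separate cultures, so the p-values measure the spread between these libraries. For each gene 1 such spread was shared by all 26 groups, so with all libraries its SE was the same in every comparison.

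In a resting cell the chaperone HSPA5 (BiP) is thought to hold the ER sensors ERN1 (IRE1), EIF2AK3 (PERK) and ATF6 inactive. Unfolded proteins draw it away. ERN1 then splices the mRNA of the transcription factor XBP1, EIF2AK3 slows translation and favours ATF4, and ATF6 is cut to release a transcription factor, and these arms raise chaperones, folding enzymes and the machinery that returns misfolded proteins to the cytosol for degradation. Fibroblasts secrete large amounts of collagen and fibronectin and depend on this machinery.

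Levels are given as normalized read counts, that is the reads of a library divided by its size factor on a scale shared by the 52 libraries, and the 2 libraries of a group are named the larger and the smaller by their total reads. The untreated libraries held 19000000 and 15300000 reads and the treated libraries 19300000 to 55500000. All 25 comparisons with untreated cells share that 1 untreated pair, so their calls are not independent of each other. The untreated pair carries no day, so on later days time in culture and treatment cannot be told apart. The RS libraries stood apart from each other more than any other pair, with a mean chi-square per gene of 219 against 5.84 to 35.8 in the other pairs. The shared SE does not carry this wider spread, so p-values of comparisons with RS have to be read with caution. All 10 fibroblast markers had reads in every library. Their summed level ran from 572257 on day 0 of Ca2+-Sen to 1308289 on day 1 of DDR-Sen, whereas the 4 epithelial markers summed to at most 29.9, the 4 endothelial markers to at most 234, the 4 markers of white blood cells to at most 34.5 and the 2 smooth muscle markers to at most 76.8. Of these other markers, KRT5 was at 0 in 47 libraries, CD3E in 42, SFTPC in 40, CDH5 in 38 and MYH11 in 38. In contrast, VWF, DES and EPCAM had reads in every library, and PECAM1 was at 0 in only 2. The share of reads from the mitochondrial genome was 2.42 to 3.49%. In bulk RNA, fewer cells of a type and less RNA per cell cannot be told apart.

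Of the 39 genes, 37 had a mean level of at least 10 and were tested. HYOU1, an ER chaperone of the large heat shock family, had 12 reads in all 52 libraries together and at most 3 in any library. DERL3 had none, which at 3 reads allows a level of up to 1.63 to 6.01 depending on the library, and 77% of its exon bases lie in exons of SMARCB1 on the other strand. In the GENCODE release 29 annotation of GRCh38, 20 of the 39 genes, HSPA5, HERPUD1, XBP1 and ERN1 among them, share no exon base with another gene. DERL3, PDIA6 (25.2%), DNAJB11 (23.2%), PDIA3 (18.9%) and EIF2AK3 (15.1%) share over 15%. Whether counting used the strand is not given in the sources used here, so for these genes reads of the partner cannot be told apart. Other counting settings are not given either, so the few reads of HYOU1 cannot be told apart from reads lost in counting. The same holds for CANX, whose median level over the groups was 623, against 43285 for CALR.

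Many genes of this response carry an ER stress response element in the promoter, to which ATF6 and XBP1 bind. The windows from 250 bases before to 50 after the transcription start, from RefSeq on GRCh38.p14, were searched on both strands for ERSE (CCAAT and CCACG with any 9 bases between), ERSE-II (ATTGG and CCACG with any 1 base between) and the unfolded protein response element UPRE (TGACGTGG). ERSE lay in 8 of the 36 members with a window (22.2%) and in 0.0769% of 35116 windows of all genes, ERSE-II in 3 members (8.33%) and in 0.0541% of windows, and UPRE in 2 members (5.56%) and in 0.729% of windows. Counted by gene, ERSE lay in 25 of 27305 genes, ERSE-II in 19 and UPRE in 253. Because the members were chosen as genes of this response, these shares are a description and were not tested. The 8 with ERSE were HSPA5, HSP90B1, CALR, CANX, CRELD2, XBP1, ERO1B and PDIA6, the 3 with ERSE-II were HERPUD1, HYOU1 and SDF2L1, and the 2 with UPRE were HYOU1 and SSR3. PDIA3, DERL1 and DERL3 had no window. Only exact matches were sought, so variants of an element were not covered. The 250 bases before the start of 4 genes are shown because their transcripts differed in level change on day 0 of PMD-Sen, 3 of them with an exact match and 1 without, and capitals mark the match: HSPA5 (chr9:125241344-125241593, minus strand) with ERSE 66 to 48 bases before the start, CALR (chr19:12938359-12938608, plus strand) with ERSE on the opposite strand 225 to 207 bases before it, HERPUD1 (chr16:56931892-56932141, plus strand) with ERSE-II 117 to 107 bases before it, and DNAJB9 (chr7:108569624-108569873, plus strand) with no exact match to the 3 motifs.
HSPA5: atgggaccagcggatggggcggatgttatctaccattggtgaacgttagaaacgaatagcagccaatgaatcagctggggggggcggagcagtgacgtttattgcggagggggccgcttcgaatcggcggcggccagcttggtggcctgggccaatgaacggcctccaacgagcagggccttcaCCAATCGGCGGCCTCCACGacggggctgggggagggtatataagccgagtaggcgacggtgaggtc
CALR: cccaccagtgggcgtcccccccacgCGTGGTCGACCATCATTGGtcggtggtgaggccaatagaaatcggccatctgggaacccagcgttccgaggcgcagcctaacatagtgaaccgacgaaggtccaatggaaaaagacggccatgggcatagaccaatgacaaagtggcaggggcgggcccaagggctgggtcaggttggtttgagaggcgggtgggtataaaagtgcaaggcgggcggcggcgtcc
HERPUD1: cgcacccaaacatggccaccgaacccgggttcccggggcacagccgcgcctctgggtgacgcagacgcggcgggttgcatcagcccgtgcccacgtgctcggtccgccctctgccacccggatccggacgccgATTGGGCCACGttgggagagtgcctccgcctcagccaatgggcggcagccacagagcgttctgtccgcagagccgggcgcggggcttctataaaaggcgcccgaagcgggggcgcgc
DNAJB9: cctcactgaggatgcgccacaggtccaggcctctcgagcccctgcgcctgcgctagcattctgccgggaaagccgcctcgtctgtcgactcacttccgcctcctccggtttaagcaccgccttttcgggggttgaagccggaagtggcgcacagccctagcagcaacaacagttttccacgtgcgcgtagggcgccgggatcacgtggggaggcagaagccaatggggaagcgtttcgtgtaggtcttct

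To see how these genes responded while the detergent was present, PMD-Sen cells at the wash were compared with untreated cells. Transcripts of this response rose together. Of the 37 genes, 32 were higher and 0 were lower (limma on log2(level + 1), Benjamini-Hochberg adjusted p below 0.05 over 15633 genes), against 55.8% of all genes called in either direction, 27.6% higher and 28.1% lower. No gene was lower at an unadjusted p below 0.05 either, and limma voom on the recovered reads also called 0 lower. The median difference was 0.88 on the log2 scale, and that of all genes was -0.00. In 29 of the 30 genes whose 2 day 0 libraries are known separately, both lay above both untreated libraries, against 37.4% of all genes. The share of all normalized reads that fell on the 39 genes was 2.49% on this day, 0.99% in untreated cells and 0.73 to 1.02% in every other group, and without HSPA5 it was 1.59% against 0.868%. The fibroblast markers summed to 1043657 on this day against 1109788 in untreated cells and the endothelial markers to 61.9 against 50.3.

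The chaperones rose in 8 of 10 cases. HSPA5, a widely used reporter of the response, was at 40252 and 35444 normalized reads in the untreated libraries and at a mean of 273766 on day 0, a 7.25-fold rise (log2 difference 2.86, SE 0.11, adjusted p = 1e-12). Its 2 libraries of that day are known only as their mean. DNAJB9, a co-chaperone that assists HSPA5 and dampens ERN1, was at 845 and 986 in untreated cells and at 9565 and 9231 on day 0, a 10.3-fold rise (log2 3.36, SE 0.10, adjusted p = 3.4e-22). Neither gene's day 0 level came near the untreated range. MANF, a stress-induced cofactor of HSPA5, rose 2.73-fold, the co-chaperone DNAJC3 2.41-fold, SDF2L1 2.37-fold, DNAJB11 2.05-fold, HSP90B1 (GRP94) 1.8-fold and CRELD2 1.52-fold. The lectin chaperones did not pass the test, with log2 differences of 0.18 (SE 0.08, adjusted p = 0.068) for CALR and 0.66 (SE 0.32, adjusted p = 0.076) for CANX, whose libraries varied more than those of any other member.

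**Figure D1:**
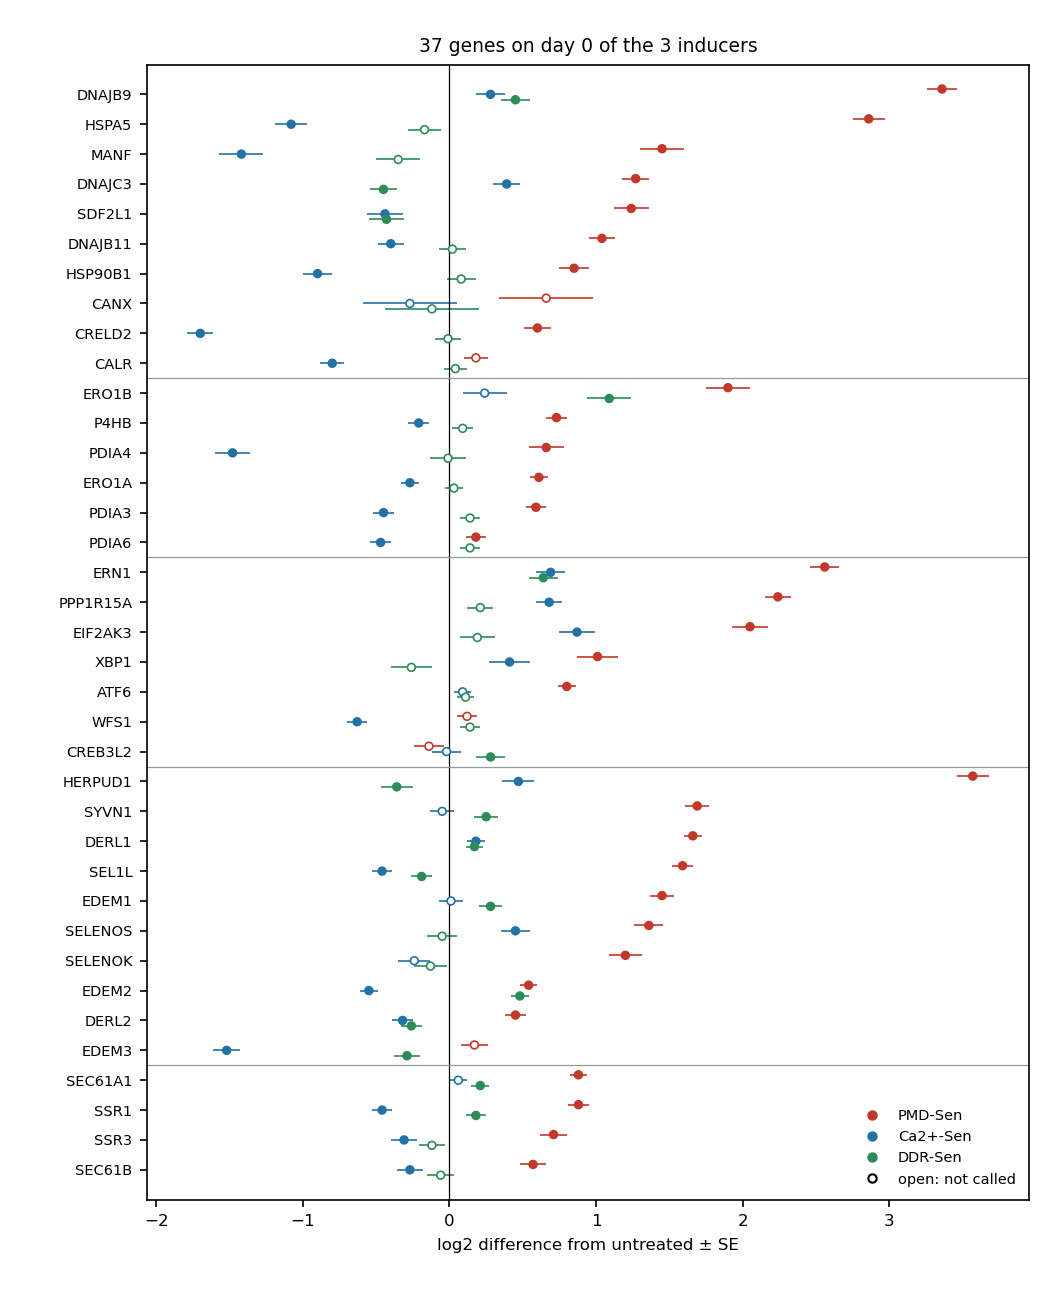
Difference from untreated (log2 of the normalized read count plus 1, ± SE from the fit, x axis) of the 37 tested genes (y axis, grouped by role, ordered by their value in PMD-Sen) on day 0 of the 3 inducers. Filled points passed adjusted p below 0.05 and open points did not. PMD-Sen points reach 3.57 for HERPUD1 and 32 of them are filled on the right of 0, while Ca2+-Sen points run from -1.70 to 0.87.

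Among the genes of ER-associated degradation, 9 of 10 rose. HERPUD1, a membrane protein that recruits the ubiquitin ligase complex, went from 1923 and 1788 in untreated cells to 22846 and 21321 on day 0. This 11.9-fold rise (log2 3.57, SE 0.11, adjusted p = 1.2e-21) was the largest among the members. The ligase SYVN1 (HRD1) rose 3.22-fold, the channel protein DERL1 3.16-fold, the ligase adaptor SEL1L 3.01-fold, the mannosidase EDEM1 2.72-fold and the selenoproteins SELENOS 2.57-fold and SELENOK 2.29-fold. EDEM2 rose 1.46-fold and DERL2 1.36-fold, and EDEM3, at 3802 and 3982 in untreated and 4212 and 4568 in day 0 cells, did not pass (adjusted p = 0.097).

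Of the 7 sensors and regulators, 5 rose. ERN1 was at 444 and 395 in untreated and at 2454 and 2485 in day 0 cells, a 5.89-fold rise (log2 2.56, SE 0.10, adjusted p = 6.2e-19). EIF2AK3 was at 597 and 719 and then at 2687 and 2731, a 4.13-fold rise (log2 2.05, SE 0.12, adjusted p = 2.9e-15). PPP1R15A (GADD34), the phosphatase subunit that reverses the block of translation by EIF2AK3, went from 3844 and 4777 to 22262 and 18324, a 4.71-fold rise (log2 2.24, SE 0.09, adjusted p = 1.2e-18). In each of the 3 the day 0 libraries lay far above both untreated libraries. XBP1 rose 2.01-fold, from 3557 and 3150 to 6808 and 6685, and ATF6 1.74-fold. These counts are of all XBP1 transcripts and do not separate the spliced form. CREB3L2, a membrane-bound transcription factor of the ATF6 kind that supports secretion, had a log2 difference of -0.14 (adjusted p = 0.26), and WFS1, an ER membrane protein that restrains ATF6, one of 0.12 (adjusted p = 0.13).

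All 6 genes of oxidative folding were called higher. The oxidase ERO1B, at 176 and 192 in untreated and 754 and 632 in day 0 cells, rose 3.74-fold (log2 1.90, SE 0.15, adjusted p = 2.5e-12), and P4HB, PDIA4, ERO1A and PDIA3, oxidoreductases and an oxidase that form and shuffle disulfide bonds, rose 1.51 to 1.66-fold. PDIA6 rose 1.13-fold (adjusted p = 0.021), a call that was lost without the smaller untreated library (adjusted p = 0.22) or the larger day 0 library (adjusted p = 0.12). All 4 genes of the translocon, through which nascent chains enter the ER, rose: SEC61A1 from 30925 and 27444 to a mean of 53604, SSR1 from 9093 and 9499 to 16361 and 17870, SSR3 1.64-fold and SEC61B 1.49-fold. The 8 members with ERSE in the window had a median log2 difference of 0.76 on this day, with CALR and PDIA6 at 0.18 and HSPA5 at 2.86. The 2 tested members with ERSE-II were SDF2L1 at 1.24 and HERPUD1 at 3.57. Together the 10 tested members with ERSE or ERSE-II had a median of 0.93. The 25 tested members whose window held neither had a median of 0.88, with CREB3L2 at -0.14 and DNAJB9 at 3.36. Differences between these sets were not tested.

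**Figure D2:**
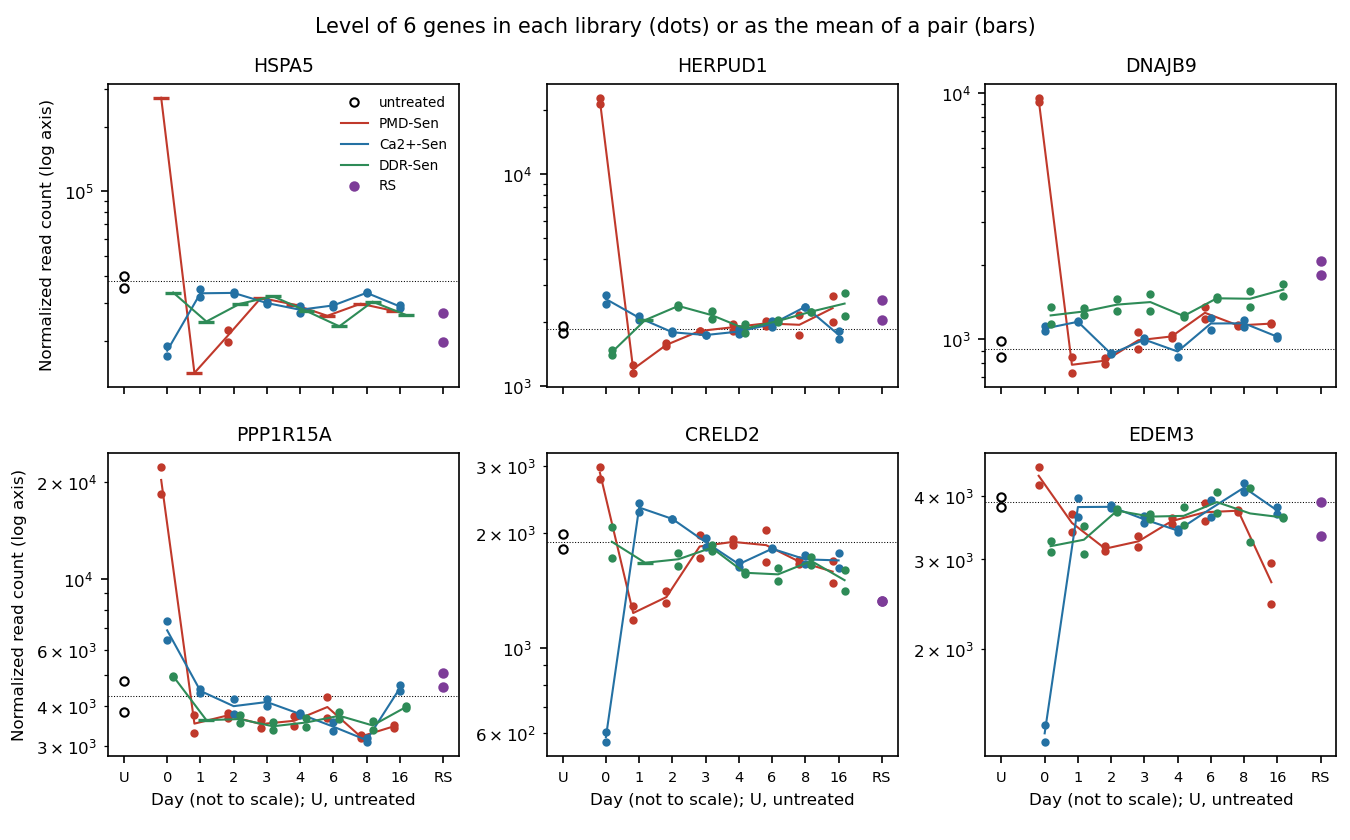
Normalized read count (log axis) of HSPA5, HERPUD1, DNAJB9, PPP1R15A, CRELD2 and EDEM3 in untreated cells (U), on days 0 to 16 of the 3 inducers (days not drawn to scale) and in RS. Dots are single libraries, short bars the mean of a pair whose libraries are not known separately, lines join the means and the dotted line is the untreated mean. HSPA5 peaks at 273766 on day 0 of PMD-Sen and is at 14120 a day later, and CRELD2 and EDEM3 have their lowest levels on day 0 of Ca2+-Sen.

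Of the 32 genes that rose in PMD-Sen, EDEM2 and ERO1A were still called higher than in untreated cells 1 day after the wash. Some others had differences above 0 that were not called, such as ERN1 (log2 0.25) and P4HB (0.18). All 32 were lower on day 1 than on day 0, and 35 of the 37 were lower and 0 higher by limma, 0 at an unadjusted p below 0.05 and 0 by voom, against 56.7% of all genes called and 27.3% called lower. The rise and this fall rest on the same day 0 libraries. The median log2 difference between the 2 days was -1.29. HSPA5 was 19.4-fold lower on day 1, with a mean of 14120 (log2 -4.28, SE 0.11, adjusted p = 3.8e-15), and HERPUD1 was 18.3-fold lower, at 1255 and 1157. DNAJB9, at 730 and 845, was 11.9-fold lower, EIF2AK3 6.76-fold, PPP1R15A 5.73-fold and ERN1 4.96-fold. CANX was at 483 and 1805 on day 1. Its difference from day 0, -0.20 (adjusted p = 0.62) with both libraries, was 0.75 (adjusted p = 0.014) without the larger and -1.15 (adjusted p = 0.00038) without the smaller day 1 library, so that its direction rests on which of these libraries is used. CREB3L2 was the other gene not called.

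Several genes on day 1 went below the untreated level. Of the 37, 20 were lower and 2 were higher than in untreated cells, against 31.2% of all genes called, 16.5% higher and 14.7% lower, and the median was -0.28. HSPA5 was 2.67-fold lower (log2 -1.42, SE 0.11, adjusted p = 1.5e-07) and had its lowest level of the 26 groups. XBP1, at 1310 and 1480 against 3557 and 3150 in untreated cells, was 2.4-fold lower (log2 -1.26, SE 0.14, adjusted p = 5.8e-08). CALR was 1.82-fold, MANF 1.65-fold, EIF2AK3 1.64-fold, PDIA4 1.59-fold and HERPUD1 1.54-fold lower. DNAJB9, at its lowest level of the 26 groups with 730 and 845 against 845 and 986 in untreated cells, did not pass (log2 -0.22, adjusted p = 0.089). The 2 higher genes were EDEM2 (log2 0.33) and ERO1A (log2 0.39), and with each group scaled to its total level 7 were higher. On day 2, 3 were higher and 13 lower, against 20.6% of all genes called, 12.4% higher and 8.16% lower, with HSP90B1 at -1.09, PDIA4 at -0.86 and HSPA5 at -0.85. Without the larger day 2 library 10 of these 16 calls were made.

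Treatment with KCl gave a different picture on day 0. Of the 37 genes, 9 were higher and 20 lower than in untreated cells, against 59.1% of all genes called, 28.2% higher and 30.9% lower, and the median was -0.27. Lower calls were made for 7 of 10 chaperones, 5 of 6 genes of oxidative folding, 3 of 4 of the translocon, 4 of 10 of ER-associated degradation and 1 of 7 sensors and regulators, and 4 of these 7 were higher. Differences between the roles were not tested. HSPA5 was at 17031 and 18846, 2.11-fold below the untreated pair (log2 -1.08, SE 0.11, adjusted p = 3.3e-07). CRELD2, an ER protein with disulfide-exchange activity, was at 566 and 602 against 1985 and 1816 in untreated cells, 3.25-fold lower (log2 -1.70, SE 0.09, adjusted p = 5.3e-16). EDEM3, which trims mannose from misfolded glycoproteins, was at 1306 and 1413 against 3802 and 3982, 2.86-fold lower (log2 -1.52, SE 0.09, adjusted p = 2.9e-15). PDIA4, at 3134 and 3675 against 10083 and 8897, was 2.79-fold lower, and MANF, at 777 and 782 against 2122 and 2048, was 2.67-fold lower. For each of these 5 genes both treated libraries were below both untreated libraries. HSP90B1, CALR, WFS1 and EDEM2 were lower by 1.46 to 1.86-fold, and in the translocon group SSR1, at 6685 and 6791, was 1.38-fold lower.

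Of the 9 genes that were higher on day 0 of Ca2+-Sen 4 were sensors and regulators, 2 were chaperones and 3 belonged to ER-associated degradation, with log2 differences of up to 0.87. EIF2AK3 was at 1198 and 1199 against 597 and 719 (log2 0.87, SE 0.12, adjusted p = 2.2e-07). ERN1 was at 611 and 747 against 444 and 395 (log2 0.69, SE 0.10, adjusted p = 1e-06), and PPP1R15A at 6418 and 7374 against 3844 and 4777 (log2 0.68, SE 0.09, adjusted p = 1.5e-07). HERPUD1 (0.47), SELENOS (0.45) and DNAJC3 (0.39) were higher too. XBP1 (0.41), DNAJB9 (0.28) and DERL1 (0.18) were called with all libraries, but each lost its call without 1 untreated library, with adjusted p = 0.12, 0.24 and 0.15. On this day the 10 fibroblast markers summed to 572257 against 1109788 in untreated cells. The 4 endothelial markers summed to 234 against 50.3 and the 2 smooth muscle markers to 62.5 against 16.5. Over all libraries CDH5 had at most 3 reads and MYH11 at most 4, but PECAM1 had up to 216, VWF up to 250 and DES up to 98. The part of these markers in the result was not tested.

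A day after the KCl was removed most of this had turned back. From day 0 to day 1 of Ca2+-Sen, 21 genes rose and 7 fell, against 59.8% of all genes called. CRELD2 rose by 2.00 on the log2 scale to 2397 and 2276, EDEM3 by 1.48 to 3977 and 3639, MANF by 1.48 to 2163 and 2188, PDIA4 by 1.13 to 7604 and 7256, and HSPA5 by 0.89 to 34770 and 31836. The 7 that fell were all among the 9 that had been higher on day 0, with EIF2AK3 at -0.97, PPP1R15A at -0.62 and XBP1 at -0.54. Both sets rest on the same day 0 libraries, so this overlap is not separate evidence. Against untreated cells 5 genes were then higher and 5 lower, against 16.9% of all genes called, 8.67% higher and 8.22% lower. This count of 10 was 5 without the larger untreated library, 4 without the larger and 0 without the smaller day 1 library.

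Doxorubicin changed fewer of the genes on day 0 than the other inducers. On that day 10 were higher and 6 lower, against 40.5% of all genes called, so that the members' share was near the background, and without the smaller day 0 library 10 in all were called. HSPA5 had a mean of 33588 and did not pass (log2 -0.17, SE 0.11, adjusted p = 0.26). ERO1B was at 366 and 421 against 176 and 192 in untreated cells, 2.13-fold higher (log2 1.09, SE 0.15, adjusted p = 5.2e-07). ERN1, at 606 and 700, was 1.55-fold higher, EDEM2, at 1536 and 1646, 1.4-fold, and DNAJB9, at 1152 and 1347, 1.36-fold. DNAJC3, at 2592 and 2485 against 3380 and 3579, was 1.37-fold lower and SDF2L1 1.34-fold lower. HERPUD1, at 1488 and 1411 against 1923 and 1788, was called lower (log2 -0.36), a call that was lost without the larger untreated library (adjusted p = 0.083). From day 0 to day 1, 2 genes rose and 10 fell, against 21.2% of all genes called, and 5 in all were called without the smaller day 0 library and 6 without the larger day 1 library. On day 1, 6 were higher and 10 lower than in untreated cells, against 30.3% of all genes called, and this count of 16 was 9 or 8 without the larger or smaller untreated library and 7 without the larger day 1 library.

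The inducers were then compared with each other directly, without the untreated pair. On day 0, 36 of the 37 genes were higher in PMD-Sen than in Ca2+-Sen and 0 were lower by limma, 0 at an unadjusted p below 0.05 and 0 by voom, against 64.1% of all genes called and 32.9% called higher. The differences were 3.93 for HSPA5 (log2, SE 0.11, adjusted p = 6e-15), 3.10 for HERPUD1, 3.09 for DNAJB9, 2.87 for MANF, 2.30 for CRELD2 and 2.14 for PDIA4, and CREB3L2 did not pass (-0.12, adjusted p = 0.33). Against DDR-Sen, 32 genes were higher in PMD-Sen and CREB3L2 was lower (-0.42, adjusted p = 0.00096), against 56.9% of all genes called, with HERPUD1 at 3.93, HSPA5 at 3.03 and DNAJB9 at 2.91. EDEM2, PDIA6, CALR and WFS1 did not pass there. Between Ca2+-Sen and DDR-Sen, 6 genes were higher and 21 lower in Ca2+-Sen, against 61% of all genes called. CRELD2 (-1.69), EDEM3 (-1.23) and HSPA5 (-0.91, adjusted p = 2.3e-06) were lower in Ca2+-Sen and DNAJC3 (0.84), HERPUD1 (0.83), EIF2AK3 (0.68) and XBP1 (0.67) higher.

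On day 1 the order of the inducers had turned for many genes. PMD-Sen was now lower than Ca2+-Sen in 20 genes and higher in 2, against 19.7% of all genes called, with log2 differences of -1.24 for HSPA5 (adjusted p = 1.8e-06) and -1.13 for XBP1, and lower than DDR-Sen in 18 and higher in 2, against 36.1%, with XBP1 at -1.02 and HSPA5 at -0.80. P4HB (0.37) and EDEM2 (0.21) were higher in PMD-Sen than in Ca2+-Sen, and ERO1A (0.51) and DNAJC3 (0.25) higher than in DDR-Sen. The call of EDEM2 was lost without any of the 4 libraries and that of DNAJC3 without the smaller PMD-Sen library (adjusted p = 0.12). Ca2+-Sen exceeded DDR-Sen in 9 genes and was below it in 5, against 25.5%, and the higher genes included SDF2L1 (0.71) and CRELD2 (0.48), and HSPA5 (0.44), whose call was lost without the larger Ca2+-Sen library (adjusted p = 0.081).

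**Figure D3:**
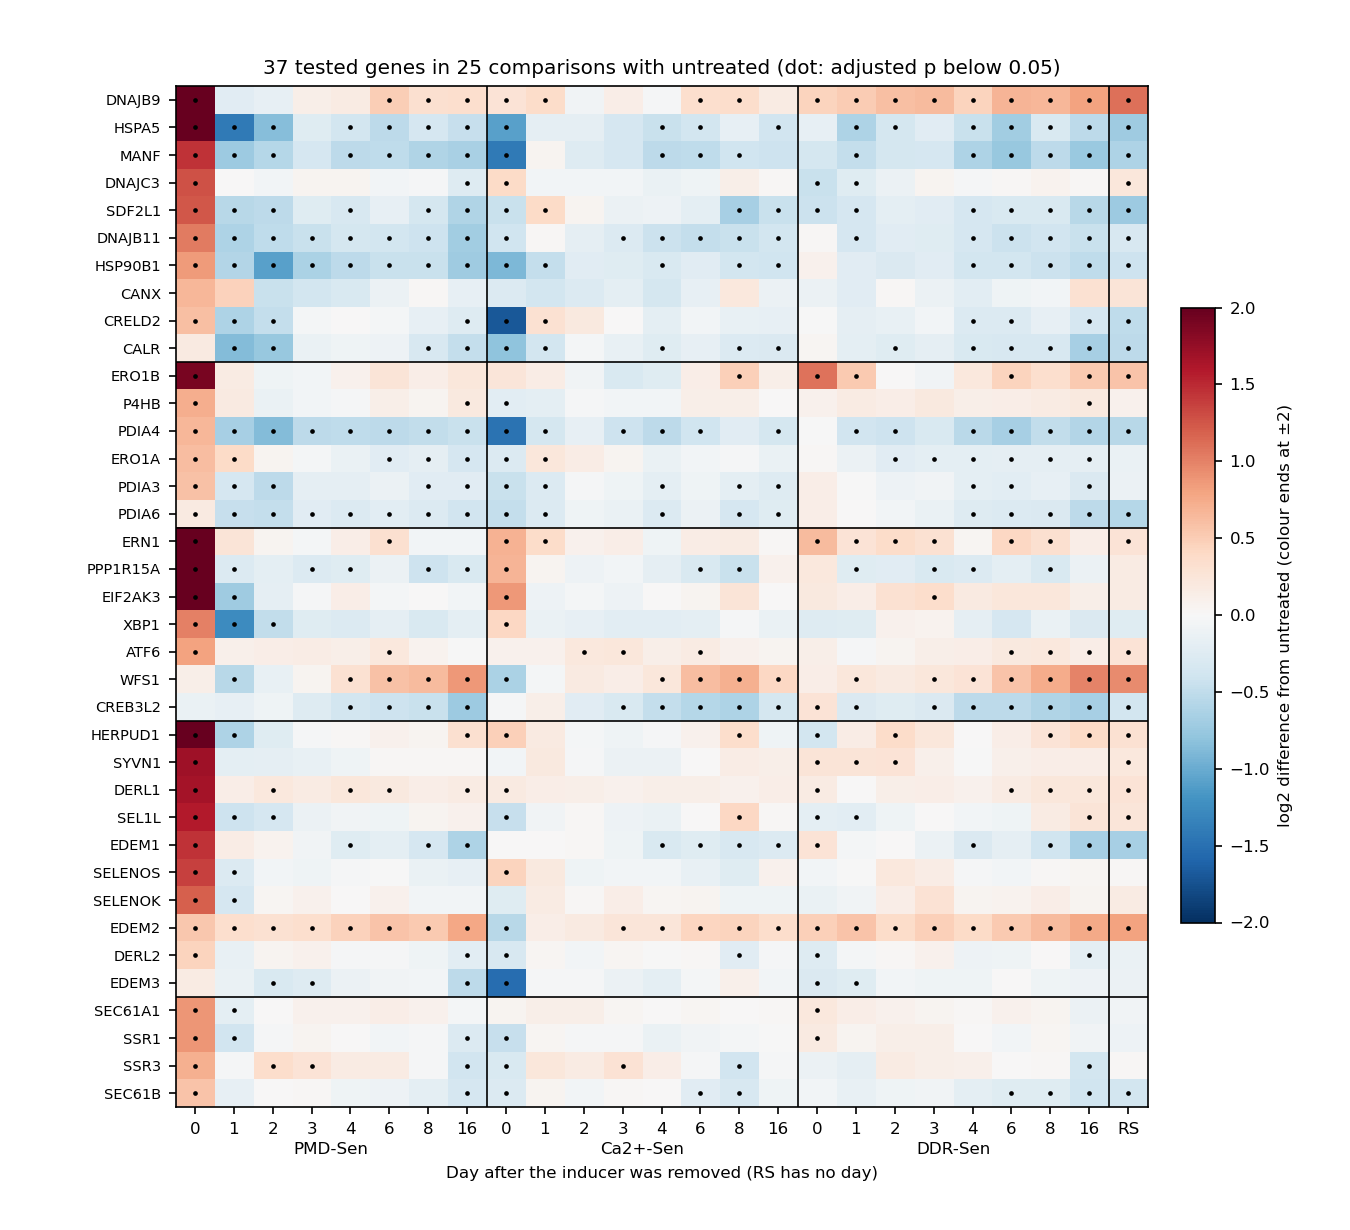
Difference from untreated (log2, colour, which ends at ±2) of the 37 tested genes (rows, grouped by role) on each day of the 3 inducers and in RS (columns). A dot marks adjusted p below 0.05. The first column, day 0 of PMD-Sen, has 32 dots on red, and the row of EDEM2 has 22 red dots and 1 blue dot, on day 0 of Ca2+-Sen.

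On days 2 to 8 most calls were lower in PMD-Sen and, from day 4, in Ca2+-Sen and DDR-Sen. In PMD-Sen 8, 13, 14 and 16 of the 37 genes were called on days 3, 4, 6 and 8, against 21.8%, 24.7%, 31.3% and 26.7% of all genes, and 2, 3, 6 and 3 of these were higher, against 11.8%, 12.8%, 15.8% and 14% of all genes. In Ca2+-Sen 1, 6, 12, 12 and 19 were called on days 2, 3, 4, 6 and 8, against 5.85%, 15.9%, 20.7%, 27.3% and 43.3%, and 1, 3, 2, 4 and 6 were higher, against 3.49%, 8.33%, 10.1%, 14% and 21.2%, and the other calls were lower, against 2.37%, 7.58%, 10.6%, 13.4% and 22%. In DDR-Sen 9, 8, 17, 20 and 20 were called on these days, against 20%, 22%, 25.3%, 36.8% and 37.5%, and 5, 5, 3, 7 and 7 were higher, against 9.9%, 11.1%, 12.6%, 18.2% and 18.8%. Many of these counts depend on 1 library. Leaving out each of the 4 libraries in turn gave 5 to 8, 7 to 11 and 9 to 14 calls on days 3, 4 and 8 of PMD-Sen, 0 to 1, 0 to 3, 5 to 9 and 6 to 9 on days 2, 3, 4 and 6 of Ca2+-Sen, and 2 to 7, 4 to 6, 8 to 14, 12 to 18 and 13 to 16 on days 2, 3, 4, 6 and 8 of DDR-Sen. The low end came without the larger untreated library except on days 2 and 3 of DDR-Sen, where it came without the larger day 2 library and the smaller untreated library, and it was also reached or nearly reached without the smaller library of day 3 and the larger of day 4 in PMD-Sen and without treated libraries on days 2, 3, 4 and 6 of Ca2+-Sen and days 3 and 4 of DDR-Sen. Because the 25 comparisons share 1 untreated pair, counts over them are not repeated evidence. Over all 25 comparisons, PDIA4 was lower in 20 and higher in 1, DNAJB11 lower in 19 and higher in 1, and HSPA5, HSP90B1 and PDIA6 each lower in 17 and higher in 1, the 1 being day 0 of PMD-Sen. HSPA5 ranged from 14120 to 273766, and in the other 24 groups from 17938 on day 0 of Ca2+-Sen to 37848 in untreated cells. EDEM2 was higher in 22 of the 25 and lower in 1, DNAJB9 higher in 17, and WFS1 higher in 15 and lower in 2, on day 0 of Ca2+-Sen and day 1 of PMD-Sen. WFS1 was at 4105 and 4026 in untreated cells, at 4976 and 5126, 4907 and 4542, and 4876 and 4914 on day 4 of PMD-Sen, Ca2+-Sen and DDR-Sen, and at 6272 and 6285, 6559 and 6788, and 6442 and 7151 on day 8. ERN1, DERL1 and ATF6 were higher in 11, 11 and 9 of the 25 comparisons and called lower in none of them. CANX was called in none of the 25.

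To compare established senescence of the different kinds, RS and day 16 were set against untreated cells. Chaperones were lower in 7, 8, 5 and 7 of 10 cases in RS, PMD-Sen, Ca2+-Sen and DDR-Sen, and WFS1 and EDEM2 were higher in each of the 4. In RS 11 genes were higher and 12 lower, against 47.7% of all genes called, 24.3% higher and 23.4% lower. On day 16 of PMD-Sen 6 were higher and 20 lower, against 44% of all genes called, 21.4% higher and 22.6% lower. On day 16 of Ca2+-Sen 2 were higher and 10 lower, against 16.8%, 8.92% and 7.93%. On day 16 of DDR-Sen 9 were higher and 16 lower, against 47.1%, 22.5% and 24.6%. Of the 10 genes of ER-associated degradation 5 were higher and 1 lower in RS, 3 and 3 on day 16 of PMD-Sen, 1 and 1 of Ca2+-Sen and 4 and 2 of DDR-Sen. Leaving out the smaller RS library took the higher genes in RS from 11 to 6, those lost being DNAJC3, HERPUD1, ERN1, SEL1L and SYVN1. The 12 calls in Ca2+-Sen were 4 without the larger untreated library and 3 without either day 16 library.

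HSPA5 was at 19703 and 27047 in RS, at 29440 and 28368 on day 16 of Ca2+-Sen and at means of 27543 and 26399 on day 16 of PMD-Sen and DDR-Sen, all below the untreated 40252 and 35444. The log2 differences were -0.71 in RS (adjusted p = 6.3e-05), -0.46 in PMD-Sen (adjusted p = 0.0036), -0.52 in DDR-Sen (adjusted p = 0.0012) and -0.39 in Ca2+-Sen (adjusted p = 0.027), the last lost without the larger untreated library (adjusted p = 0.19). HSP90B1, CALR, SDF2L1, DNAJB11, PDIA4, PDIA6, EDEM1 and CREB3L2 were also called lower in all 4, but in Ca2+-Sen each of these calls was lost without some library, as were PDIA4 in PMD-Sen without the larger day 16 library (adjusted p = 0.15) and DNAJB11 in RS without the larger RS library (adjusted p = 0.17). EDEM1 was at 2414 and 2577 in untreated cells, 1779 and 1400 in RS, 1677 and 1579 in PMD-Sen, 2084 and 2048 in Ca2+-Sen and 1596 and 1554 in DDR-Sen. CREB3L2 was at 5023 and 4607 in untreated cells and at 2884 and 2933 on day 16 of PMD-Sen, 1.65-fold lower (log2 -0.73, SE 0.10, adjusted p = 1.3e-06), and at 3322 and 4255 in RS, where its call was lost without the larger RS library (adjusted p = 0.22).

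WFS1 and EDEM2 were the 2 genes higher in all 4. WFS1 was at 7913 and 7810 in RS, 7626 and 7250 in PMD-Sen, 5499 and 5402 in Ca2+-Sen and 7806 and 8350 in DDR-Sen, against 4105 and 4026 in untreated cells (log2 0.95, 0.87, 0.42 and 0.99). EDEM2, a mannosidase that starts the trimming of misfolded glycoproteins, was at 2039 and 1944 in RS, 1918 and 1967 in PMD-Sen, 1508 and 1381 in Ca2+-Sen and 1833 and 1983 in DDR-Sen, against 1087 and 1186 (log2 0.81, 0.77, 0.35 and 0.75). For both genes each of these 8 libraries lay above both untreated libraries. DNAJB9 was at 2082 and 1832 in RS (log2 1.10, adjusted p = 6.9e-11) and at 1502 and 1680 in DDR-Sen (log2 0.80, adjusted p = 4.6e-08). It was at 1149 and 1166 in PMD-Sen (log2 0.34), a call that was lost without the larger untreated library (adjusted p = 0.12), and at 1015 and 1032 in Ca2+-Sen (log2 0.16, adjusted p = 0.25), against 845 and 986.

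**Figure D4:**
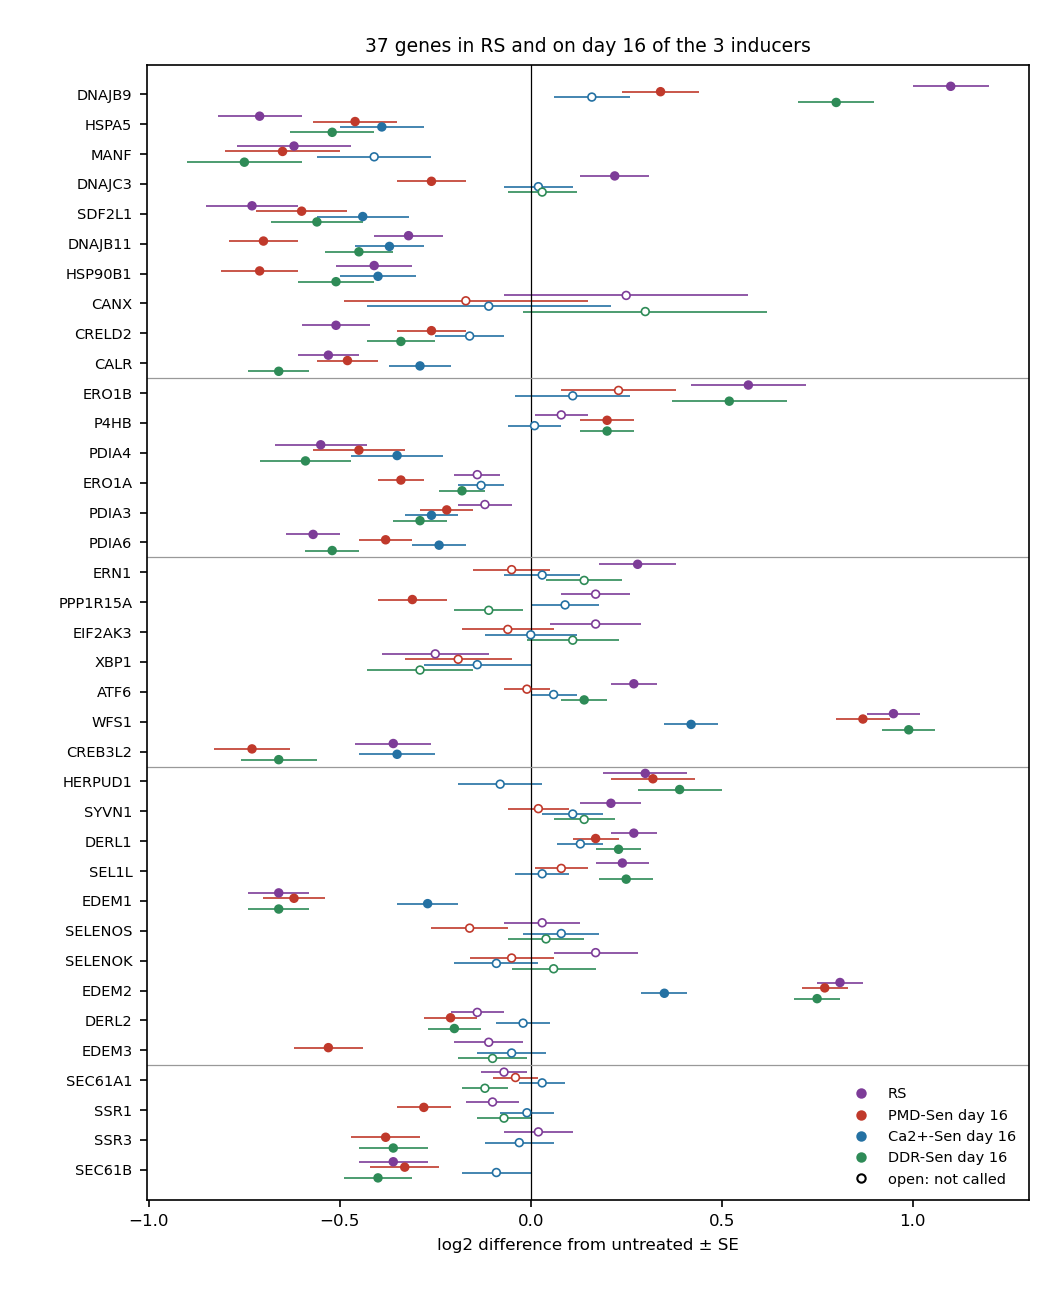
Difference from untreated (log2 ± SE from the fit, x axis) of the 37 tested genes (y axis, grouped by role as in the plot of day 0) in RS and on day 16 of PMD-Sen, Ca2+-Sen and DDR-Sen. Filled points passed adjusted p below 0.05. DNAJB9, WFS1 and EDEM2 reach 1.10, 0.99 and 0.81 on the right, and most chaperones lie left of 0.

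Late groups were also compared with each other. DDR-Sen on day 16 differed from RS in 1 gene, SSR3 (-0.38), against 3.75% of all genes called, and this count ran from 0 to 3 as each of the 4 libraries was left out. PMD-Sen differed from RS in 13 genes, 2 higher (PDIA6 and CRELD2, both lost without the smaller library of either group) and 11 lower, against 20.3%, with DNAJB9 at -0.75, and the count was 6 without the smaller RS library and 7 without the smaller PMD-Sen library. Ca2+-Sen differed from RS in 13, 6 higher and 7 lower, against 29.5%, with DNAJB9 at -0.93, WFS1 at -0.53 and EDEM2 at -0.46, and the count was 7 without either Ca2+-Sen library. PMD-Sen and DDR-Sen on day 16 differed in 3 genes, all lower in PMD-Sen (DNAJB9 -0.46, EDEM3 -0.43, DNAJC3 -0.29) and 0 higher, with 2 higher at an unadjusted p below 0.05 and 0 by voom, against 5.37%, a count that ran from 1 without the smaller to 5 without the larger PMD-Sen library. PMD-Sen and Ca2+-Sen differed in 14, 3 higher in PMD-Sen (WFS1 0.45, EDEM2 0.43 and HERPUD1 0.40, the last lost without the smaller library of either group) and 11 lower, against 23.6%, and 9, 9 and 8 were called without the smaller PMD-Sen, the larger and the smaller Ca2+-Sen library. Ca2+-Sen and DDR-Sen differed in 13, 6 higher in Ca2+-Sen and 7 lower, against 28.2%, with DNAJB9 at -0.63 and WFS1 at -0.57, and 7 and 8 were called without the larger Ca2+-Sen and the larger DDR-Sen library. From day 1 to day 16, 12 genes rose and 7 fell in PMD-Sen, against 53.2% of all genes called, with WFS1 at 1.42, XBP1 at 1.08, HSPA5 at 0.96, HERPUD1 at 0.94 and EDEM1 at -0.77. In Ca2+-Sen 3 rose and 9 fell, against 27.5%, with 7 called without any of the 4 libraries, and in DDR-Sen 7 rose and 8 fell, against 32.8%.

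Other genes of the pathway were followed as lists, which like the members were chosen with earlier results of these data known. A list of genes of the EIF2AK3 and ATF4 arm held ATF4 itself and genes that supply amino acids or control death under stress. It was higher on day 0 of PMD-Sen in 14 of the 14 tested (median log2 2.44), against 27.6% of all genes. These are transcript levels, and the activity of EIF2AK3 was not measured. TRIB3, a pseudokinase induced by ATF4, went from a mean of 740 to 14330 (19.4-fold, adjusted p = 1.8e-18), and DDIT3 (CHOP), a factor that promotes death in prolonged stress, from 288 to 3823 (13.2-fold, adjusted p = 2.8e-17). The same list had 11 higher (78.6%) and 1 lower (7.14%) in Ca2+-Sen (median 1.09), against 28.2% and 30.9% of all genes, with ATF3 going from 406 to 1803 and STC2 from 14699 to 9124, and 4 higher and 3 lower in DDR-Sen (median -0.07), against 19.5% and 21%. On day 1 of PMD-Sen 6 were lower and 0 higher by limma, 0 at an unadjusted p below 0.05 and 0 by voom, against 14.7% and 16.5% of all genes. Of 46 other ER genes, 42 were higher (91.3%) and 2 lower (4.35%) on day 0 of PMD-Sen (median 0.60), against 27.6% and 28.1%, led by the chaperone HSPA13 (2223 to 12426), and CREB3L1, a membrane-bound factor close to CREB3L2, fell from 11170 to 4712 (log2 -1.25, adjusted p = 9.4e-14). In Ca2+-Sen 9 were higher (19.6%) and 18 lower (39.1%), against 28.2% and 30.9%, with the protease MBTPS2, which cuts ATF6, going from 1774 to 766. In DDR-Sen 9 were higher and 6 lower (19.6% and 13%), against 19.5% and 21%. The cytosolic heat shock genes answer to unfolded proteins outside the ER. HSPA1A and HSPA1B were on this list but not among the genes tested, so the counts do not cover them. In PMD-Sen 3 of the 8 tested were higher (37.5%) and 4 lower (50%), against 27.6% and 28.1% of all genes, HSPB1 falling from 19204 to 8449. In Ca2+-Sen 6 were higher and 1 lower (75% and 12.5%), against 28.2% and 30.9%, HSPH1 rising from 5875 to 19345 and DNAJA1 from 8193 to 22424, and in DDR-Sen 1 was higher and 3 lower, against 19.5% and 21%.

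The 5 genes whose group levels were most like those of HSPA5 over the 26 groups were none of the 39. They were ZNF621 (Pearson's r of the log2 levels 0.944), CDK2AP2 (0.938), SUCO (0.924), GOSR1 (0.923) and PRPH2 (0.922). SUCO went from 3042 in untreated cells to 8953 on day 0 of PMD-Sen and 2330 on day 1, and CDK2AP2 from 776 to 2895 and 509. Over the 25 groups without day 0 of PMD-Sen the values of r were 0.514 to 0.721, and the groups share 1 scale. Of the 37 genes themselves, 33 had their highest level of the 26 groups on day 0 of PMD-Sen, against 18.7% of all genes tested, the exceptions being CANX, CREB3L2, EDEM2 and WFS1, and 10 had their lowest level on day 0 of Ca2+-Sen, against 21% of all genes.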

How the data were processed

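mRNA-seq reads of WI-38 cells were processed by the authors with Trim Galore, HISAT2, HTSeq, featureCounts and DESeq2 on GRCh38 (hg38), per the submitters' processing notes, which give no versions or roles. Each of the 25 deposited tables held a signal column, the authors' mean normalized count of a gene over the 2 treated and 2 untreated libraries, beside columns of their own comparison (fold change, standard error, p-values), which were not used. Raw counts per library were not used here. Since a mean normalized count is a sum of whole reads divided by size factors, the reads of each library were recovered from the steps of the deposited values with Python 3.11.15 and numpy 2.4.6. The untreated reads of all 46275 genes above 0 came out the same from 2 disjoint sets of 5 tables. For some high genes in tables of fewer digits a pair could not be separated, and its mean entered as 1 column with weight 2. The recovered libraries carry no link to the labels' replicate numbers, and here replicate 1 is the larger. Total reads were 15300000 to 55500000 per library, and the median SD of a member between libraries of a group was 0.09 (log2). The 1 row with no gene name was left out. No other per-sample column was held.

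Levels were compared with limma 3.58.1 in R 4.3.3 on log2(level + 1), with a trend of the variance on the mean, in 1 fit of 26 groups over the 15633 genes with a mean level of at least 10, two-sided, with Benjamini-Hochberg adjustment within each of 43 comparisons and a threshold of 0.05. Fold changes on this scale understate those of low genes. The fit and the recovery were tested on simulated data. For day 0 of PMD-Sen, 52% of 1.5-fold, 72% of 2-fold and 98% of 4-fold changes were called, and 0.175% of unchanged genes. Smaller changes can thus be missed. All reads recovered in simulation equalled those drawn, but on day 1 of DDR-Sen 359 pairs were not separated, against 3314 in the data. Recovered reads were not compared with a count table. The design was written for reads per library, to be recovered where possible, and was fitted as written. The 39 members, the other gene lists and the markers were chosen with earlier results of these data known. Values were given for HSPA5 and, per role, for the members with the largest rise and fall on day 0, day 16 or in RS, and further members were chosen after their values were seen. Scaling, filter, pseudocount, variance model and left-out libraries were varied, and limma voom on the recovered reads was added after seeing the data. Figures were drawn with matplotlib 3.10.9. Floors at 0 reads cover counting error only.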

Additional observations from a re-analysis of the deposited data

Results flagged for a closer look

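Differences between the inducers were tested by contrasts of the treated groups themselves. On day 0, 36 of the 37 tested genes differed between PMD-Sen and Ca2+-Sen, 33 between PMD-Sen and DDR-Sen and 27 between Ca2+-Sen and DDR-Sen, against 64.1%, 56.9% and 61% of all genes. On day 1 the numbers were 22, 20 and 14, against 19.7%, 36.1% and 25.5%. On day 16 they were 14, 3 and 13, against 23.6%, 5.37% and 28.2%. HSPA5 differed between PMD-Sen and Ca2+-Sen by 3.93 (log2, SE 0.11) on day 0 and by -1.24 (SE 0.11) on day 1. No group held enough libraries for a search for single outlying samples.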

How the results depend on the processing

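No paired analysis was possible because the recovered libraries carry no replicate number of the labels. Most counts of genes called stayed within 1.5 times the reported count under other scalings, filters, pseudocounts and variance models, and the cause of the exceptions was not tested. With no filter on low levels, the counts went from 8 to 5 (PMD-Sen day 3), from 1 to 0 (Ca2+-Sen day 2), from 6 to 3 (Ca2+-Sen day 3), from 16 to 9 (DDR-Sen day 1), from 8 to 4 (DDR-Sen day 3) and from 13 to 8 (PMD-Sen day 16 against RS). With each group scaled to its total level, they went from 1 to 2 (Ca2+-Sen day 2), from 3 to 6 (PMD-Sen against DDR-Sen on day 16) and from 1 to 0 (DDR-Sen day 16 against RS), and voom gave 2 for the last. Scaling moved the median of all genes by -0.039 to 0.062 (log2).

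With each library left out in turn, the counts against untreated cells were 20 to 22 in RS. In PMD-Sen they were 31 to 32, 20 to 23, 10 to 16, 5 to 8, 7 to 11, 10 to 13, 9 to 14 and 20 to 25 from day 0 to day 16 in order of time. In Ca2+-Sen they were 26 to 28, 0 to 7, 0 to 1, 0 to 3, 5 to 9, 6 to 9, 13 to 17 and 3 to 11 in the same order. In DDR-Sen they were 10 to 13, 7 to 11, 2 to 7, 4 to 6, 8 to 14, 12 to 18, 13 to 16 and 20 to 23. Between PMD-Sen and Ca2+-Sen they were 35 to 36, 18 to 21 and 8 to 11 on days 0, 1 and 16, between PMD-Sen and DDR-Sen 32, 18 to 21 and 1 to 5, and between Ca2+-Sen and DDR-Sen 25 to 28, 10 to 15 and 7 to 13. Day 16 against RS gave 6 to 14 in PMD-Sen, 7 to 11 in Ca2+-Sen and 0 to 3 in DDR-Sen. Day 1 against day 0 gave 34 to 36, 24 to 26 and 5 to 13 in that order of inducers, and day 16 against day 1 gave 16 to 21, 7 and 12 to 14. Where a pair was known by its mean, leaving out 1 library kept that mean with its weight of 2, so these ranges do not test such pairs. This held for 7 members on day 0 of PMD-Sen, HSPA5 among them, and for 20 on day 1 of DDR-Sen. Elsewhere a lone library was assumed to vary like the other groups. CANX between days 1 and 0 of PMD-Sen went from -0.20 to 0.75 (log2, SE 0.25, limma adjusted p = 0.014) without the larger and to -1.15 (SE 0.25, adjusted p = 0.00038) without the smaller day 1 library.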
